A study of Caenorhabditis elegans with 2 samples.

Results

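The X chromosome held 646 UNC-62 regions away from promoters, out of 4849 regions in the authors' list for the pooled replicates. They were chosen by position alone. Each lay on X, and its summit lay outside every window from 1000 bp upstream to 500 bp downstream of a protein-coding transcript start in the WBcel235 annotation. Whole worms at the L4 larval stage, of mixed sex, were used for ChIP-seq (chromatin immunoprecipitation, then sequencing) of UNC-62, in 2 biological replicates of strain OP600, a single transgenic line. Per the labels, these worms carry the unc-119 allele ed3 (written unc119(ed3)) and the transgene wgIs600, in which unc-62 is fused to TY1, EGFP and FLAG sequences and which also holds unc-119. Both samples share this genotype, so there was no second condition. The tag sits at the C-terminus, and the labels give unc-62 as the antibody target. The labels give no age beyond the stage. Whole worms do not show which tissue a region comes from. Coordinates are 1-based positions in ce11, which is the same assembly as WBcel235. The signal of a region is the authors' own value on a scale that no source used here gives, and ranks are by signal within a list. The read depth behind the values is unknown, and no control library was analysed here.

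UNC-62 is a homeodomain transcription factor of the Meis class, which acts with Pbx-class partners and recognises DNA around the core TGACAG. Regions bound away from promoters, in introns and between genes, include enhancers in many animals. The X chromosome of the worm has a further property: in XX animals a dosage compensation complex binds both X chromosomes and lowers their expression. That complex is recruited at discrete X-linked recruitment elements, which carry a sequence called MEX (motif enriched on X) with the core GCGCAGGG.

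Sequences are shown first for the regions that held the MEX core, since the counts below turn on it. Of the 646 regions, 12 had the MEX core within 100 bp of the summit. Each is printed with 15 bases to either side, 5′ to 3′ on the strand that reads GCGCAGGG, which is in capitals, and is named by the gene it lies in or by the nearest protein-coding start. These 12 were set out after their values had been seen, in falling order of pooled signal.
mom-1 intron, chrX:6296561-6296598, plus strand: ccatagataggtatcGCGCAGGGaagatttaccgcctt
near xol-1, chrX:8036386-8036423, minus strand: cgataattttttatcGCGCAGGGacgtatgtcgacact
pks-1 coding exon, chrX:5429575-5429612, plus strand: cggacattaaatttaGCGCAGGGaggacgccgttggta
near F20B6.9, chrX:4209251-4209288, minus strand: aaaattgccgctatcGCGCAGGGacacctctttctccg
near W02H3.3, chrX:11094110-11094147, minus strand: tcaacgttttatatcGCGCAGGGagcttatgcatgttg
near F22H10.2, chrX:16682157-16682194, minus strand: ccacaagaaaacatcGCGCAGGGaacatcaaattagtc
near gtr-1, chrX:806659-806696, plus strand: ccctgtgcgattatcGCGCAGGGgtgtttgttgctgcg
Y41G9A.17 intron, chrX:2997283-2997320, minus strand: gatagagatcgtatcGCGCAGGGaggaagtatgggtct
near dpy-23, chrX:4395600-4395637, plus strand: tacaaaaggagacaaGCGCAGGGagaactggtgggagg
near T24D8.6, chrX:2364884-2364921, minus strand: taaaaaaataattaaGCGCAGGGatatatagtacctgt
near C15H9.9, chrX:6129289-6129326, plus strand: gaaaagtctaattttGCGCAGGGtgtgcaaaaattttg
near col-185, chrX:13514543-13514580, plus strand: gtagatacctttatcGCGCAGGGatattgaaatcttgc

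The core of the Meis class is shown for the regions of highest signal that held it. The TGACAG nearest to the summit is in capitals, again with 15 bases to either side on the strand that reads it.
near jmjd-3.1, chrX:8567408-8567443, plus strand: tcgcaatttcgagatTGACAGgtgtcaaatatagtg
near F19H6.5, chrX:12363219-12363254, plus strand: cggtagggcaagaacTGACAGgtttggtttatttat
near aakg-3, chrX:2971611-2971646, minus strand: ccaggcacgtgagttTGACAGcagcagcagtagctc
near M163.1, chrX:14500756-14500791, minus strand: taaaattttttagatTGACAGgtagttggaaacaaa
near srg-64, chrX:15736572-15736607, minus strand: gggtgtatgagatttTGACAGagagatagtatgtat
near pigx-1, chrX:1093262-1093297, plus strand: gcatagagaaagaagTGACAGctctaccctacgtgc
lin-14 intron, chrX:11481161-11481196, plus strand: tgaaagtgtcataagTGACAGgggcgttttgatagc
near cab-1, chrX:12197476-12197511, minus strand: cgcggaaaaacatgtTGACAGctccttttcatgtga
near ftt-2, chrX:11608498-11608533, minus strand: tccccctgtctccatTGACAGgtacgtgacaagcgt
scav-4, chrX:12982854-12982889, plus strand: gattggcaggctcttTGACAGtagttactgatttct
Y71H10B.1, chrX:2837024-2837059, plus strand: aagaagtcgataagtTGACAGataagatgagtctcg
near sma-9, chrX:10766207-10766242, minus strand: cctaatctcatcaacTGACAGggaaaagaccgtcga

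The 3 highest regions on X away from promoters all lacked TGACAG within 100 bp, so their windows of 201 bp around the summit are shown on the plus strand. Capitals mark GCAGGGA on either strand, the end of the MEX core with a following A, a word added after the data had been seen.
mom-1 intron, chrX:6296537-6296737: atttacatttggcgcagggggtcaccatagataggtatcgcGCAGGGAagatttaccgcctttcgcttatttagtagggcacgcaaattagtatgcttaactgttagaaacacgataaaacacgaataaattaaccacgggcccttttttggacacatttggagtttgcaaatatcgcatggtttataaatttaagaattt
near F55G7.5, chrX:11937472-11937672: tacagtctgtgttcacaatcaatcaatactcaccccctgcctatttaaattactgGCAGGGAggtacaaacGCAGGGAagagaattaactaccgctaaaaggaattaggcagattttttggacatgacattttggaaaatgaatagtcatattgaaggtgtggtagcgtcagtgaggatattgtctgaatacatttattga
near K02D3.1, chrX:13700748-13700948: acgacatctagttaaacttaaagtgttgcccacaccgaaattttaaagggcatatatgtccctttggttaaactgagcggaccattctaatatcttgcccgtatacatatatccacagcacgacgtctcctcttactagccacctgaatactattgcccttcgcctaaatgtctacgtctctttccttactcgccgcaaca

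The MEX core lay near the summit of 12 of the 646 regions (1.86%, 95% Wilson interval 1.07 to 3.22). Of all 4828 nuclear regions in the pooled list, 0.311% held it, and these were the 12 regions above and 3 at X promoters. None of the 2056 autosomal regions away from promoters held it (interval up to 0.186%), nor did any of the 1734 autosomal promoter regions (interval up to 0.221%). The word itself is present on X and on the autosomes. X has 81 occurrences (4.57 per Mb) and the autosomes have 233 (2.82 per Mb). Of non-overlapping X tiles of 201 bp away from promoters, 0.0775% held it, and of such autosomal tiles 0.053%. The interval for autosomal regions away from promoters includes that tile share, so their lack of the word does not set them below it. Intervals on shares of regions cover only the counting of regions, and regions are not replicates. The design has a single group, so none of the differences between sets of regions was tested.

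Occurrences of the MEX core on X often fell inside a listed region, and those on the autosomes rarely did. Away from promoters, 21 of 57 occurrences on X lay inside one of the 646 regions (36.8%), and they lay in 18 regions (some regions overlap each other and some hold the word more than once). Of these 57 occurrences, 13 lay inside a thresholded peak, that is, one of the authors' list of 197 peaks that passed the irreproducible discovery rate (IDR) step. Away from promoters on the autosomes, 0 of 151 occurrences lay inside a pooled region. Over whole chromosomes, promoters included, 26 of 81 occurrences on X were inside a pooled region (32.1%) and 1 of 233 on the autosomes (0.429%). How many would fall inside by position alone was not computed for either. The core followed by A is a word picked from the strongest X regions after the data had been seen, so its counts are a description. Of its occurrences, 18 of 34 on X were inside a pooled region (52.9%) and 0 of 79 on the autosomes.

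Each replicate showed this in its own list. Among the 197 highest regions of replicate 1, 8 of 43 on X away from promoters held the MEX core (18.6%), and 0 of 70 on the autosomes away from promoters. In replicate 2 the counts were 7 of 34 (20.6%) and 0 of 58. In the whole lists, which include background regions, replicate 1 had 15 of 2433 such X regions with the word and 8 of 9009 autosomal ones. Replicate 2 had 18 of 2654 and 5 of 10148.

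Regions with the MEX core ranked high. All 12 were found in both replicate lists, 7 were thresholded peaks themselves, and 8 overlapped one. Over all nuclear pooled regions these shares were 57.9%, 3.65% and 4.43%. Of the 10 regions of highest signal, 4 held the MEX core and 1 held TGACAG. None of the 646 held both words near the summit. With 12 regions that held the MEX core and a TGACAG share of 10.4% over the 646, few could hold both. Whether the words avoid each other was not tested. The share with the MEX core was 18.4% (7 of 38) at ranks 1 to 200 of the pooled list, 7.41% (2 of 27) at ranks 201 to 400, 2.78% (2 of 72) at ranks 401 to 1000 and 0.196% (1 of 509) below.

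TGACAG showed another pattern. It lay near 67 of the 646 summits (10.4%, interval 8.25 to 13), against 9.61% of all nuclear pooled regions and 7.72% of X tiles away from promoters. The share was 10.3% in autosomal regions away from promoters and 11.0% at X promoters, with intervals that overlapped that of the 646. Among thresholded peaks it was 6 of 38 (15.8%, interval 7.44 to 30.4) on X away from promoters, 23 of 62 (37.1%, interval 26.2 to 49.5) on the autosomes away from promoters, and 7 of 18 (38.9%, interval 20.3 to 61.4) at X promoters. These intervals overlap. Of the 38 thresholded regions on X away from promoters, 25 held neither word. Within whole regions of 416 bp, 122 of the 646 held TGACAG.

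**Figure D1:**
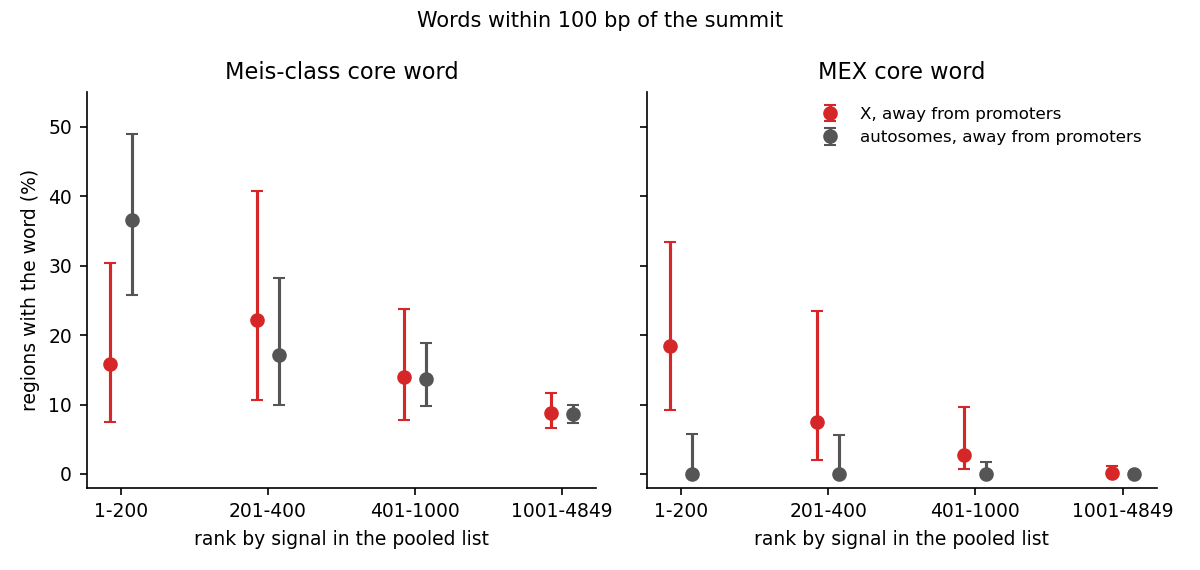
Share of regions with a word within 100 bp of the summit, on the y axis in percent, by rank in the pooled list on the x axis, for regions away from promoters on X (red) and on the autosomes (grey), with the Meis-class core on the left and the MEX core on the right. Bars are 95% Wilson intervals. The MEX core reaches 18.4% on X at ranks 1 to 200 and is 0 on the autosomes in every range of ranks, while the Meis-class core is 15.8% on X and 36.5% on the autosomes at ranks 1 to 200.

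Around the summits, TGACAG occurred at 0.712 per kb in the 50 bp before the summit in coordinate and 0.495 per kb in the 50 bp after it, against 0.414 per kb over the whole X. Farther out, between 300 and 400 bp to either side, it ran from 0.279 to 0.557 per kb. The MEX core occurred at 0.186 per kb in the 50 bp before the summit and 0.124 per kb in the 50 bp after it, against 0.00457 per kb over X. Of its occurrences within 400 bp of a summit, all but 1 lay within 200 bp. The summit given by the authors is the middle of each region, 208 bp from its start, in all 646 cases.

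**Figure D2:**
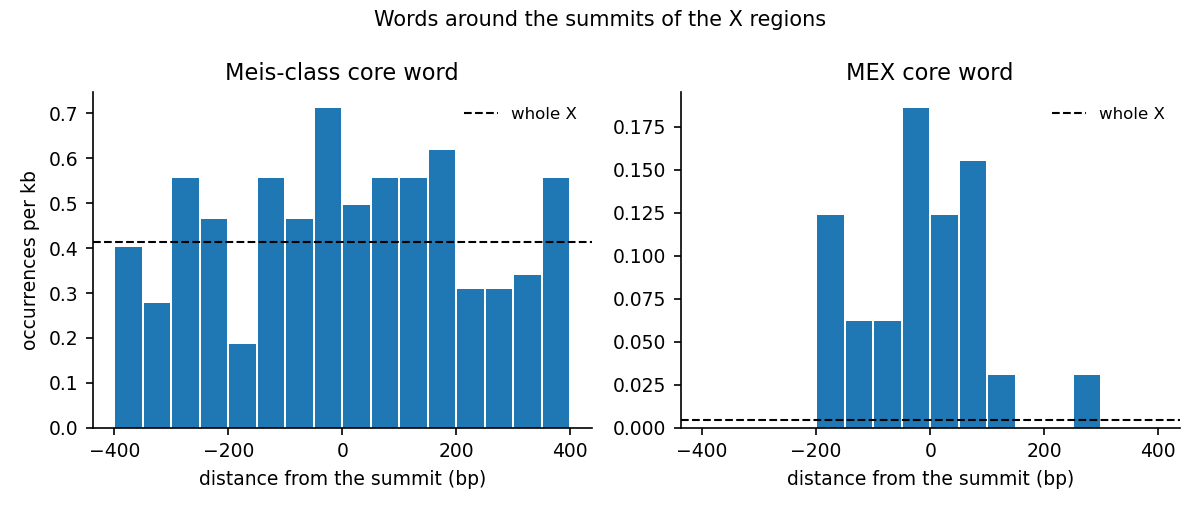
Occurrences per kb of the Meis-class core (left) and the MEX core (right) on either strand in bins of 50 bp around the summits of the 646 X regions. The x axis is distance from the summit in bp, the dashed line is the density over the whole X chromosome, and the y scales of the panels differ. The MEX core is at 0.186 per kb in the bin just before the summit and at 0 beyond 300 bp on either side.

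Other words were counted in the same windows. AGATAA, a form of the site of GATA factors (ELT-2 is one, in the gut), was near 16.4% of the 646 summits (interval 13.8 to 19.5), against 12.3% of X tiles and 12% of autosomal regions away from promoters (interval 10.6 to 13.4). It was also near 14.2% of autosomal promoter summits and 13.5% of all nuclear pooled summits (interval 12.6 to 14.5). The interval for X promoter regions, 10.9 to 17.8, overlapped that of the 646, as did that for autosomal promoter regions. CACGTG, an E-box, was near 6.19% and in 2.59% of X tiles, but also near 6.01% of all nuclear pooled summits. GAGAGAG was near 4.95%, in 2.21% of X tiles and near 7.44% of the autosomal regions away from promoters. The Pbx-Meis composite TGATTGACA was near 7 summits (1.08%, interval 0.526 to 2.22), against 0.248% of X tiles and 0.704% of all nuclear pooled regions. It was near 0 of the 38 thresholded regions. The Hox-Pbx word TGATNNAT was near 14.6% and in 15.6% of tiles. The shorter TGACA, which TGACAG and TGATTGACA contain, was near 42.3%, in 36.8% of tiles and near 39.9% of all nuclear pooled summits. GACAGT, the control word, was near 6.81% and in 6.37% of tiles, and it overlaps TGACAGT. Among thresholded peaks GACAGT was near 0 of 38 on X away from promoters and 15 of 62 (24.2%) on the autosomes away from promoters. At X promoters it was near 5 of 18 (27.8%). Among thresholded peaks it was thus not level between sets and does not serve as a control for TGACAG. Base composition differed as well: the median GC content within 100 bp was 37.3% for the 646 regions, 34.8% for X tiles and 36.8% for autosomal regions away from promoters. The part of it in the shares of GC-rich words was not tested. The median soft-masked (repeat) share was 20.1% of bases, against 27.4% in X tiles.

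The regions were spread over the chromosome. X away from promoters makes up 73.2% of X and 19.0% of nuclear sequence away from promoters, and it held 646 of the 2702 nuclear regions there (23.9%, interval 22.3 to 25.6). It held 38 of the 100 thresholded peaks away from promoters (38%, interval 29.1 to 47.8). Each full Mb of X held 24 to 50 regions, with a median of 37. Neighbouring summits were a median of 15411 bp apart. Overlap was common, with 99 regions overlapping another, and merging left 595 separate loci. Summits lay a median of 2300 bp from the nearest protein-coding start and up to 15166 bp away, with 276 upstream of that start and 370 downstream of it. The summits closest to the edges of the promoter window lay 1009 bp upstream and 503 bp downstream of a start.

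Intergenic DNA held 281 of the 646 summits (43.5%, interval 39.7 to 47.3), introns 190 (29.4%, interval 26.0 to 33.0), coding exons 100 (15.5%, interval 12.9 to 18.5), untranslated exon sequence 49 (7.59%, interval 5.78 to 9.89) and non-coding RNA genes or pseudogenes 26 (4.02%). The bases of X away from promoters are 39.9% intergenic, 31.6% intron, 20.3% coding exon, 4.12% untranslated and 4.09% non-coding gene. In the pooled list, coding exons held a smaller share of summits than of bases, and untranslated sequence a larger one. The coding-exon share differed between the replicates. Among the 4849 highest regions of replicate 1 alone it was 20.1% (131 of 652), against 20.3% of bases, and among those of replicate 2 alone it was 15.2%. Autosomal regions away from promoters were 37.2% intergenic, 33.6% intronic and 20.1% in coding exons, on sequence that is 29.7%, 36.4% and 25.1% of those classes. Among the 38 thresholded regions, 25 were intergenic (65.8%, interval 49.9 to 78.8), 10 intronic and 3 in coding exons.

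**Figure D3:**
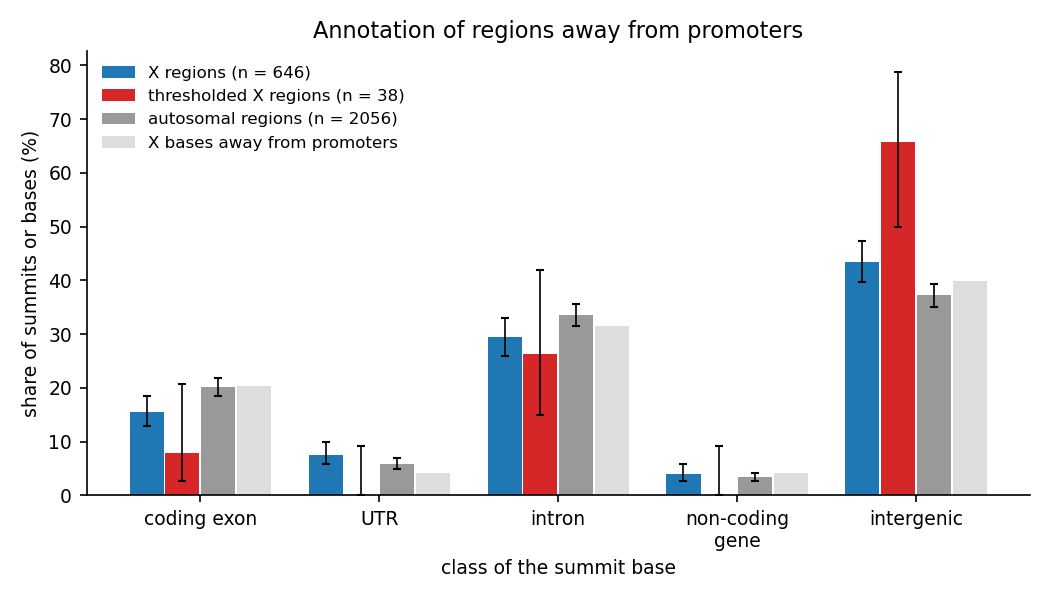
Share of summits, or of bases, in each annotation class, in percent on the y axis, for the 646 X regions, the 38 of them among thresholded peaks, the 2056 autosomal regions away from promoters and the bases of X away from promoters. Bars show 95% Wilson intervals, and the bases have none. Intergenic DNA holds 43.5% of the X regions, 65.8% of the thresholded ones and 39.9% of the bases.

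Signal was low for most regions and high for a few. It ran from 7.59 to 64.9, with a median of 9.05, and the medians by class were 9.66 in intergenic DNA, 9.04 in introns, 8.98 in untranslated sequence and 8.47 in coding exons. The 38 regions that were themselves thresholded peaks made up 5.88% of the 646 (interval 4.32 to 7.97) and 19.3% of the 197 thresholded peaks, with 3.65% of all nuclear pooled regions called. Their signal ran from 20.7 up, with a median of 28.3, and the highest region outside that list had 20.3. Overlap with a thresholded peak was found for 47 (7.28%, background 4.43%). A pooled q-value of 0.05 or less was given to 58 (8.98%, interval 7.01 to 11.4, background 6.86%), and 8.93% of X promoter regions and 5.54% of autosomal regions away from promoters had one. This share depended on the list. Among the 4849 highest regions of a single replicate, 32.8% of those on X away from promoters (214 of 652) had such a q-value in replicate 1 and 13.5% (85 of 631) in replicate 2. In all 3 lists most such regions had q-values above 0.05, and a listed region does not by itself show binding.

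The replicates shared most of the strong regions and fewer of the weak ones. Of the 646 regions, 387 overlapped a region in both replicate lists (59.9%, interval 56.1 to 63.6, background 57.9%), 85 one of replicate 1 alone, 165 one of replicate 2 alone and 9 neither. From the other side, 20.4% of the 2433 X regions of replicate 1 away from promoters overlapped one of the 646, and 22.9% of the 2654 of replicate 2. The pooled list was derived from the same reads, so these shares describe it. By class, 66.2% of intergenic, 59.5% of intronic and 45.0% of coding-exon regions were in both lists. In each replicate's own list, a q-value of 0.05 or less was given to 181 regions in replicate 1 and 97 in replicate 2, and to 67 in both (10.4%, interval 8.25 to 13, background 6.48%). Both replicates placed 28 among their 197 highest (4.33%, interval 3.02 to 6.19, background 1.76%), against 1.28% of X promoter regions (interval 0.546 to 2.95) and 1.41% of autosomal regions away from promoters (interval 0.984 to 2.02). Regions that overlap each other can share replicate regions, and the 28 overlapped 22 distinct regions in each replicate. The 5 at X promoters overlapped 4, and the 29 on the autosomes away from promoters overlapped 24. The 67 with a q-value of 0.05 or less in both overlapped 53 distinct regions of replicate 1 and 54 of replicate 2. All 38 thresholded regions were in both lists, and 23 of them were among the highest in both. The thresholded list was derived from these lists by IDR, so presence in both was largely set in advance.

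**Figure D4:**
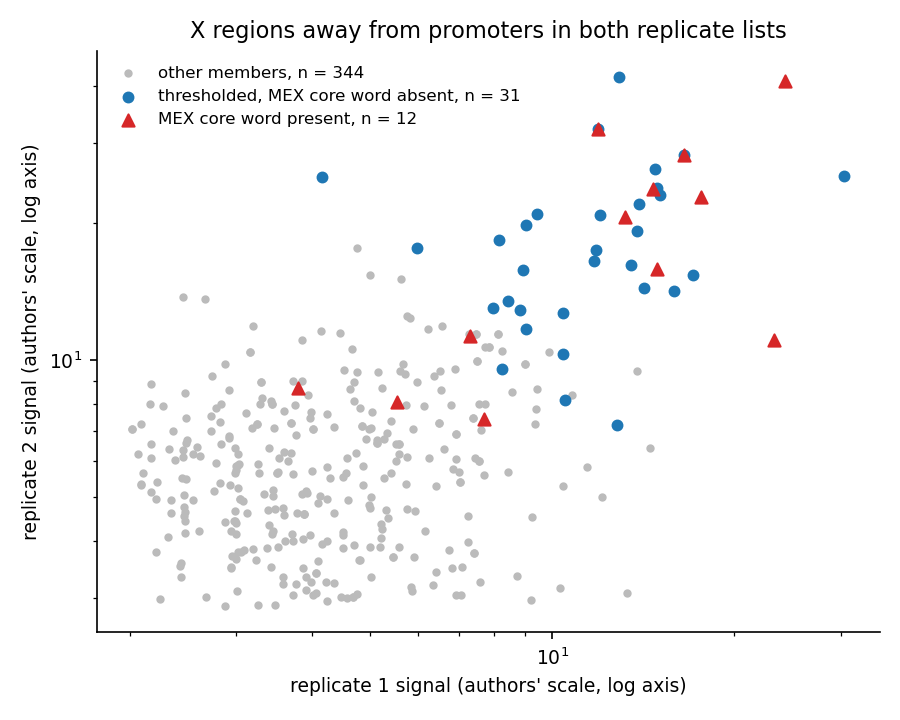
Signal in replicate 1 (x axis) and replicate 2 (y axis), the authors' values on log axes, for the 387 X regions away from promoters that overlapped a region in both lists. Red triangles are the 12 regions with the MEX core, blue points the other 31 thresholded regions and grey points the remaining 344. Overlapping regions can share one replicate region and then lie on the same point. The strongest MEX-core region, in mom-1, lies at 24.3 and 41.1.

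The intronic regions of highest signal lay in genes of varied function. The highest of all 646 lay in an intron of mom-1 (chrX:6296429-6296844), which encodes a Porcupine-type acyltransferase needed to secrete Wnt proteins. Its signal was 64.9 in the pooled list, 24.3 in replicate 1 (rank 7) and 41.1 in replicate 2 (rank 21), and its window, printed above, holds the MEX core 2 times. Both replicates thus ranked it near the top. The next, in Y41G9A.17 (chrX:2996818-2997233), had a pooled signal of 44.6, with 16.5 and 28.3 in replicates 1 and 2 (ranks 27 and 38). It overlaps a region of signal 18.3 whose window holds the MEX core. In nkb-3, which encodes a beta subunit of the sodium-potassium ATPase, the region (chrX:13767305-13767720) had signal 30.6, with 13.5 and 16.2 in the replicates (ranks 54 and 110).

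Other intronic regions were ranked less evenly by the replicates. In ifc-2, an intermediate filament gene, the signal was 26.9, with ranks of 212 in replicate 1 and 73 in replicate 2. In fkh-9, a forkhead transcription factor gene, it was 26.5, with ranks of 303 and 83. In F09A5.3 it was 23.7 and 21.0 in separate regions (chrX:13145201-13145616 and chrX:13144300-13144715), with replicate ranks of 136 and 429 for the first and 939 and 90 for the other. In nhr-3, which encodes a nuclear hormone receptor, it was 22.3, with ranks of 291 and 572. In pept-1, which encodes the intestinal oligopeptide transporter, it was 21.9 (chrX:6458022-6458437), with 12.8 in replicate 1 (rank 66) and 7.20 in replicate 2 (rank 1604). In F43C9.1 it was 21.1, with ranks of 132 and 996. The regions in pept-1 and F43C9.1 thus ranked higher in replicate 1 than in replicate 2. None of the 10 highest intronic regions held TGACAG within 100 bp of the summit, which 12.1% of all 190 intronic regions did.

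Of the intergenic regions, the highest lay 1354 bp past the F55G7.5 start (chrX:11937364-11937779). Its signal was 52.7, with 12.9 in replicate 1 (rank 65) and 41.9 in replicate 2 (rank 20). The region 6059 bp upstream of K02D3.1 (chrX:13700640-13701055) had 52.4, with 30.4 in replicate 1 (rank 3) and 25.4 in replicate 2 (rank 44). Replicate 1 thus ranked the region near K02D3.1 higher and replicate 2 the one near F55G7.5. The region 4931 bp upstream of xol-1 (chrX:8036174-8036589) had 42.1, with 11.9 (rank 83) and 32.3 (rank 24). xol-1 is the switch gene that sets sexual fate and dosage compensation early in worm development, and this window holds the MEX core 2 times. An overlapping region at 4730 bp upstream had a signal of 26.2 and no MEX core near its summit.

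The region 3611 bp upstream of jmjd-3.1 (chrX:8567228-8567643), which encodes a demethylase of histone H3 lysine residues, had 39.7, with 14.9 (rank 36) and 23.9 (rank 48). It was the highest of the 646 with TGACAG. The region 1812 bp upstream of F20B6.9 (chrX:4209089-4209504) had 37.9, with 17.6 (rank 22) and 22.8 (rank 54), and it holds the MEX core. The region near ZK899.6 (chrX:9465679-9466094) had 42, with 14.8 (rank 39) and 26.3 (rank 40), and has neither word. Near W02H3.3 (chrX:11093946-11094361) the signal was 33.1, with 13.2 (rank 61) and 20.6 (rank 66), and the MEX core is present 2 times. These regions were placed among the 197 highest by both replicates. The regions near T27A8.7 (signal 35.7), rsd-3 (33.2), an epsin-like gene of systemic RNA interference, and F56C3.1 (32.2) complete the 10 highest intergenic ones and have neither word.

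Further intergenic regions among the thresholded peaks include several with a sequence match and some seen mainly in 1 replicate. The regions near F22H10.2 (signal 30.8) and gtr-1 (28.8) hold the MEX core. For the former, the signal was 23.3 in replicate 1 (rank 10) and 11.1 in replicate 2 (rank 345). For the latter it was 14.9 (rank 37) and 15.9 (rank 114). TGACAG is present near F19H6.5 (30.9), aakg-3 (29.0), which encodes a gamma subunit of the AMP-activated kinase, M163.1 (24.8) and srg-64 (23.0), a chemoreceptor gene. The region 5064 bp upstream of bcat-1, a branched-chain aminotransferase gene, had 28.9 and stood apart. Its signal was 4.16 in replicate 1 (rank 3446) and 25.3 in replicate 2 (rank 45). The others named by signal lay near M163.1 (27.8, a separate region), F09E10.1 (24.4), C30E1.4 (23.8) and nhr-35 (23.1), and held neither word.

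In coding exons, 3 regions were thresholded peaks. The highest lay in pks-1 (chrX:5429308-5429723), a polyketide synthase gene, with a signal of 41.0, 14.7 in replicate 1 (rank 41) and 23.8 in replicate 2 (rank 49), and it holds the MEX core. The next lay in ccd-5 (chrX:2569066-2569481), with 27.9, 11.7 (rank 99) and 16.5 (rank 101). The third lay in a coding exon of ceh-60 (chrX:6522757-6523172), with 20.9, 7.97 in replicate 1 (rank 318) and 13 in replicate 2 (rank 205). ceh-60 encodes a Pbx-class homeodomain protein that acts with UNC-62 in the intestine to control yolk protein genes. This summit lay 3146 bp downstream of the start of ets-4, the nearest start, and had no TGACAG within 100 bp. Both replicates listed these 3 regions with nearly level ranks for the first 2.

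The remaining coding-exon regions were weaker and less evenly shared. Those in nuc-1 (signal 16.3), which encodes a DNase II, gcy-31 (16.0), a soluble guanylate cyclase gene, and F09B12.5 (13.9) came next. Their replicate 1 ranks were 79, 2902 and 78, and replicate 2 ranked the first 2 at 5665 and 300 and did not list the one in F09B12.5. The others were in ets-4 (13.8), an ETS-class transcription factor gene, unc-115 (13.5), which encodes an actin-binding protein of axon guidance, epn-1 (11.3), an epsin gene, and asp-3 (11.1), an aspartic protease gene. Of these 10 coding-exon regions, the one in F09B12.5 held TGACAG. In untranslated sequence the highest signal was 19.7, in T14G8.3, with ranks of 11314 in replicate 1 and 182 in replicate 2. In non-coding genes it was 17.6, in F09E10.14, with ranks of 44 and 2443.

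Of 2731 protein-coding genes on X, 276 (10.1%) contained at least 1 of the regions, and their median length was 5461 bp against 2548 bp for all. Most, 232, contained 1, and 11 contained 3 or more. The gene with most was lin-14 (WBGene00003003, chrX:11465560-11485871, 20312 bp), a heterochronic transcription factor gene regulated by the miRNA lin-4, with 7. Of these, 6 were intronic and 1 in untranslated sequence, 5 were in both replicate lists, and 1 passed the pooled q-value of 0.05. That one (chrX:11481051-11481466) had a pooled signal of 20.3, with 5.81 in replicate 1 (rank 1087) and 12.4 in replicate 2 (rank 247), and holds the TGACAG printed above. The pooled ranks of the 7 ran from 203 to 2828.

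F09A5.3 and ZK470.2 contained 5 each, and in both genes some of them overlap. A summit there lay in the miRNA gene cel-mir-56, the 1 of 74 miRNA genes on X with a summit inside. Then followed abts-4, an anion exchanger gene, rgs-7, a regulator of G protein signalling, and unc-7, an innexin gene, with 4 each. None of the regions in ZK470.2, abts-4, rgs-7 or unc-7 had a pooled q-value of 0.05 or less. ifc-2, nkb-3, sma-9, which encodes a Schnurri-type zinc finger protein of body size signalling, tmc-1, which encodes a channel-like membrane protein, and unk-1 had 3 each.

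Gene lists were read beside that 10.1%. The lists by function were short and made by hand, with earlier results of these data known. They can leave out other genes of a class, as the transcription factor list leaves out nhr-3, fkh-9, ceh-60 and ets-4. The share of a list is thus not the share of its class. Of the 15 X-linked transcription factor genes listed, 6 contained a region (median length 5614 bp): vab-3, nhr-25, daf-12, hbl-1, lin-14 and daf-3. Apart from lin-14, the best of these ranked 696 in the pooled list, in an intron of daf-12, a steroid receptor gene (signal 13.2, q = 0.185). Of the 19 listed genes of channels, synapse and neuronal function, 5 did (26.3%, median 7551 bp): the calcium channel gene unc-2, the innexin genes unc-7 and unc-9, unc-10 and acr-2. Of the 10 listed genes of signalling and axon guidance, lon-2 and mom-1 did, and of the 8 of muscle, attachment and basement membrane, unc-115 did. None of the 5 yolk protein genes on X, nor of 4 genes of dosage compensation and sex determination, contained one.

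By symbol, 6 of 23 nuclear hormone receptor genes on X contained a region (26.1%, median length 4483 bp), namely nhr-3, nhr-14, nhr-25, nhr-27, nhr-48 and nhr-71, and the highest of them apart from those in nhr-3 ranked 1579 in the pooled list, in nhr-48. Of 18 ceh homeobox genes, 1 did (ceh-60), of 18 lgc ligand-gated channel genes 1 (lgc-41), of 6 acr genes 1 (acr-2) and of 6 dpy genes 1 (dpy-6). Of 16 unc genes, 5 did, and of 6 lin genes 1 (lin-14). None did among 27 collagen genes, 13 flp and 19 nlp neuropeptide genes, 2 ins genes, 10 twk potassium channel genes or 5 egl genes. The median lengths were 1069 bp for the collagen genes, 969 bp and 820 bp for the flp and nlp genes, 4378 bp for the twk genes and 7022 bp for the egl genes. The part of gene length in these counts was not tested.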

How the data were processed

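Peak lists were read as deposited, in ce11. Per the file headers of the read-me texts, each replicate's list came from its own alignments, the pooled list from those of both, each with 1 further input of unnamed kind, and the thresholded list from those lists by IDR. No source used here names the aligner, the peak caller or the IDR threshold. The authors' lists hold a signal per region and the −log10 of its q-value. No read counts were used, so depth is unknown. Lists for ce10 were not used.

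Summits were placed on Ensembl release 115 (WBcel235) in the order coding exon, UTR, intron, non-coding gene, intergenic. Sequence was the RefSeq WBcel235 genome. Overlap meant at least 1 bp. Both strands of the 100 bp to either side of a summit were searched for words. Shares carry 95% Wilson intervals (scipy 1.17.1). No test was possible with a single group. Regions were named by signal, from those overlapping a thresholded peak and the 10 highest in intergenic DNA, introns and coding exons; genes with most regions were named too. The regions and lists were chosen with earlier results of these data known. The alternatives changed the promoter window, the threshold, the replicates used, the class order, the overlap and the word window. The steps were tested on simulated data.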

Additional observations from a re-analysis of the deposited data

How the results depend on the processing

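Of 78 alternative values, 57 stayed within the interval of the reported share or within 1.5 times the reported count. The count with the MEX core, whose alternatives were chosen after seeing the data, ran from 9 to 18 against 12. With only pooled regions of q at 0.05 or less, 58 regions were left, 5.17% in coding exons, 56.9% intergenic, 100% in both replicate lists and 19.0% with TGACAG, and the X share was 33.7%. Pooled regions with signal above the list's median left 310, with 9.03%, 49.7% and 77.7% for the first 3 of these shares and 18.7% with such a q-value. Taking the highest regions of a single replicate in place of the pooled list gave 15.2% to 20.1% in coding exons. The X share was then 22.3% to 22.7%, and 13.5% to 32.8% had a low q-value. Overlap with both lists was 42% to 42.6%. Such regions overlap their own list by construction, so that is overlap with the other replicate, unlike the share from the pooled list. The smaller promoter window gave 47.5% intergenic. Asking for 50% of the length to be shared gave 51.1% in both lists. Word windows of 50 and 200 bp gave TGACAG shares of 6.04% and 18.4%. No paired analysis was possible because the design holds a single group. Depth is unknown, so weak regions cannot be told from background.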

Other observations

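Other short words were frequent in the strong X regions away from promoters. They were picked by comparing words between the X regions of highest signal and the rest, so their shares there are a description. CGAAGGG lay within 100 bp of the summit in 9 of the 38 thresholded regions (23.7%) and in 3 of the other 608, against 0.652% of X tiles and 1 of 62 thresholded autosomal regions away from promoters. GTGGATAA lay near 7 of the 38 (18.4%) and 0 of the other 608, against 0.456% of X tiles and 0 of the 62. GCAGGGA lay near 10 of the 38 (26.3%) and 7 of the other 608, against 0.719% of X tiles and 1 of the 62. It is not separate from the MEX core, being its end with a following A. The MEX core followed by A lay near 7 of the 38 and 4 of the other 608, and the GCAGGGA counts include these. At X promoters, CGAAGGG and GTGGATAA were each near 2 of 18 thresholded regions. Of the 646 regions, 4 held both CGAAGGG and GTGGATAA. Those in the Y41G9A.17 intron (chrX:2996818-2997233) and near ZK899.6 lack the MEX core near the summit, and those upstream of xol-1 (chrX:8036174-8036589) and near W02H3.3 hold it.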
